A study of Mus musculus with 49 samples.

Results

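Inguinal and epididymal white fat of 129S1/SvImJ mice were compared by RNA-seq. The 129S1/SvImJ libraries were chosen by the depot, strain and library number in the labels, and make up 8 of the 49 samples of the series. Inguinal white adipose tissue (iWAT) is a subcutaneous depot of the flank and groin, and epididymal white adipose tissue (eWAT) is a visceral depot beside the male reproductive tract. All 8 samples were whole tissue of mice kept for 12 weeks on the control low fat diet D12450B, with 4 libraries of eWAT (library numbers 34 to 37) and 4 of iWAT (42 to 45), and carried no treatment. The corresponding 9 libraries of C57BL/6 mice on the same diet, 5 of eWAT and 4 of iWAT, were used beside them. The labels place eWAT and iWAT in different experiments, so depot and library series cannot be told apart. Neither the age of these animals nor whether both depots came from the same ones is given in the sources used here, and p-values measure only the spread between these libraries.

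White fat depots arise from different embryonic mesoderm. Visceral depots such as eWAT are covered by mesothelium, a sheet of epithelium-like cells that expresses keratins, mesothelin and the transcription factor WT1, while subcutaneous depots lie outside the body cavity and lack this layer. Fat precursors keep the positional transcription factors of their site of origin, among them the HOX proteins, which are encoded in 4 clusters in the order in which they act along the body axis. Subcutaneous mouse fat is also known for beige adipocytes, which express the uncoupling protein UCP1, and for the lymph node embedded in the inguinal pad.

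All values are the authors' normalized values, whole numbers with a floor of 1, and the depth behind them is unknown. In the 8 libraries 22.7% to 26.6% of transcripts lay at that floor. Differences are log2 fold changes of iWAT minus eWAT ± SE on the log2(value + 1) scale, which understates the change of low genes, and levels are mean ± SD of 4 libraries. A gene was called when limma's Benjamini-Hochberg adjusted p, two-sided and over all 22869 genes, was under 0.05. The labelled tissue was checked against marker lists first. The 37 adipocyte genes had a mean log2 level of 10.73 to 10.96 in eWAT and 10.46 to 11.11 in iWAT. All 24 genes secreted by the epididymal duct had a mean under 10 in both depots, and 13 of them lay at the floor in every library.

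Inguinal replicates 1 and 4 stood apart from replicates 2 and 3. T cell and B cell transcripts were abundant in them. The 16 T cell genes summed to 6602 and 3519 in replicates 1 and 4, to 171 and 244 in replicates 2 and 3, and to 147 to 236 in eWAT. The 15 B cell genes summed to 7254 and 2164 in replicates 1 and 4, to 45 and 94 in replicates 2 and 3, and to 73 to 111 in eWAT. Replicate 1 also held skeletal muscle transcripts, with a value of 1049 for the fast myosin gene Myh4 against 15 to 73 in the other 7 libraries. Ucp1 had a value of 2392 in inguinal replicate 4, against 42 to 86 in the other 3 inguinal libraries and 22 to 62 in eWAT. Within-depot correlations over genes were 0.985 to 0.99 in eWAT and 0.954 to 0.992 in iWAT, and those between depots were 0.948 to 0.985. The part of these cells in the depot differences was not tested beyond a repeat without inguinal replicates 1 and 4, given below.

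**Figure D1:**
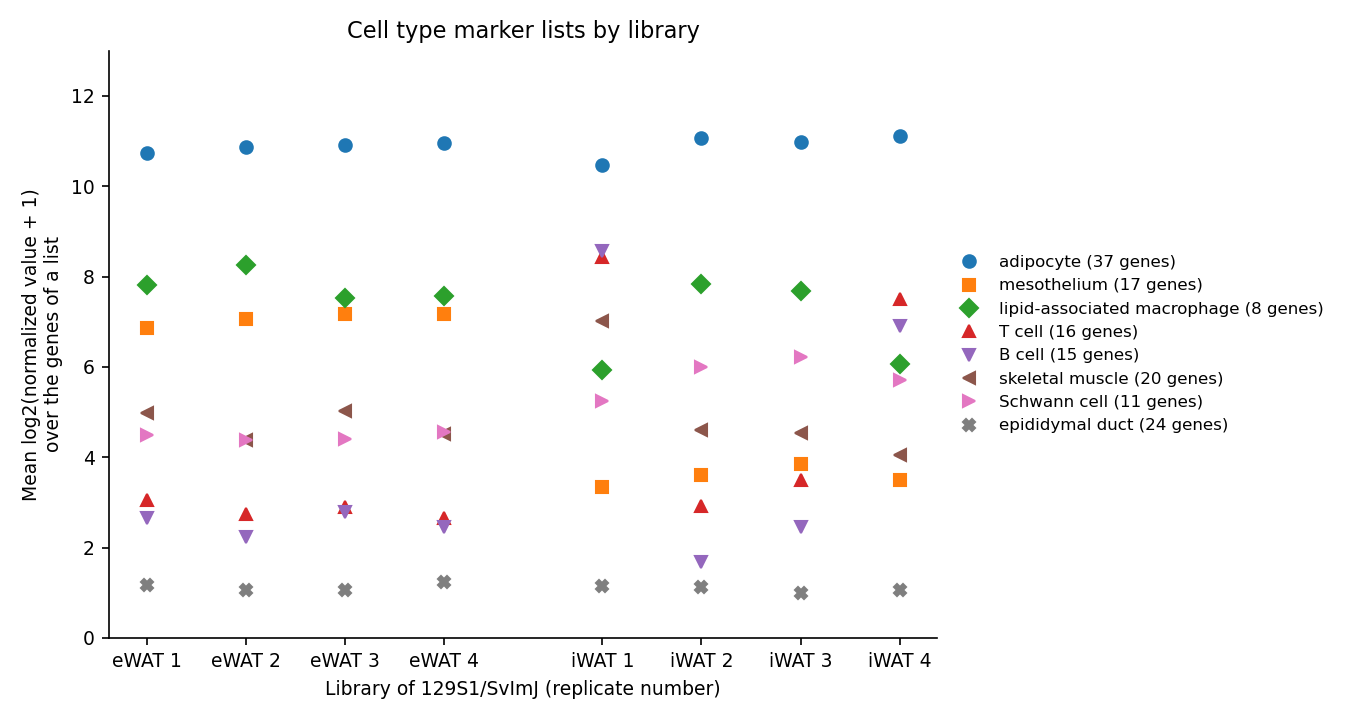
Mean log2(normalized value + 1) over the genes of 8 cell type marker lists, one point per library of 129S1/SvImJ, with eWAT on the left and iWAT on the right. Adipocyte genes lay near 11 throughout, mesothelial genes were lower in all 4 iWAT libraries, T and B cell genes were high in inguinal replicates 1 and 4, and muscle genes in inguinal replicate 1.

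Depot differences in 129S1/SvImJ were called for 210 of 22869 genes (0.918%), of which 158 were lower (0.691%) and 52 higher (0.227%) in iWAT. The libraries of the depots did not overlap for any of the 210, against 6.3% of all genes tested, 4.04% with lower and 2.26% with higher values in iWAT. Calling on the same values selects for such separation, so it is not separate support for the calls. The median difference over all genes was 0. In 167 of the 210 the mean reached 10 in at least one depot, while 43 stayed below it, and 10 of the calls rested on genes with identical values within each depot, such as 1 in one depot and 2 in the other. Without inguinal replicates 1 and 4, which leaves 2 libraries in iWAT, 148 genes (0.647%) were called (67 higher and 81 lower), 83 of them among the 210. All 210 kept their sign, which was fixed in advance because their depots did not overlap. Of the 210, 91 were called with each of the 8 libraries left out in turn. The count fell to 135, 125, 127 and 126 without epididymal replicate 1, 2, 3 and 4 and to 117 without inguinal replicate 4. In bulk tissue, fewer cells of a type and less RNA per cell cannot be told apart.

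**Figure D2:**
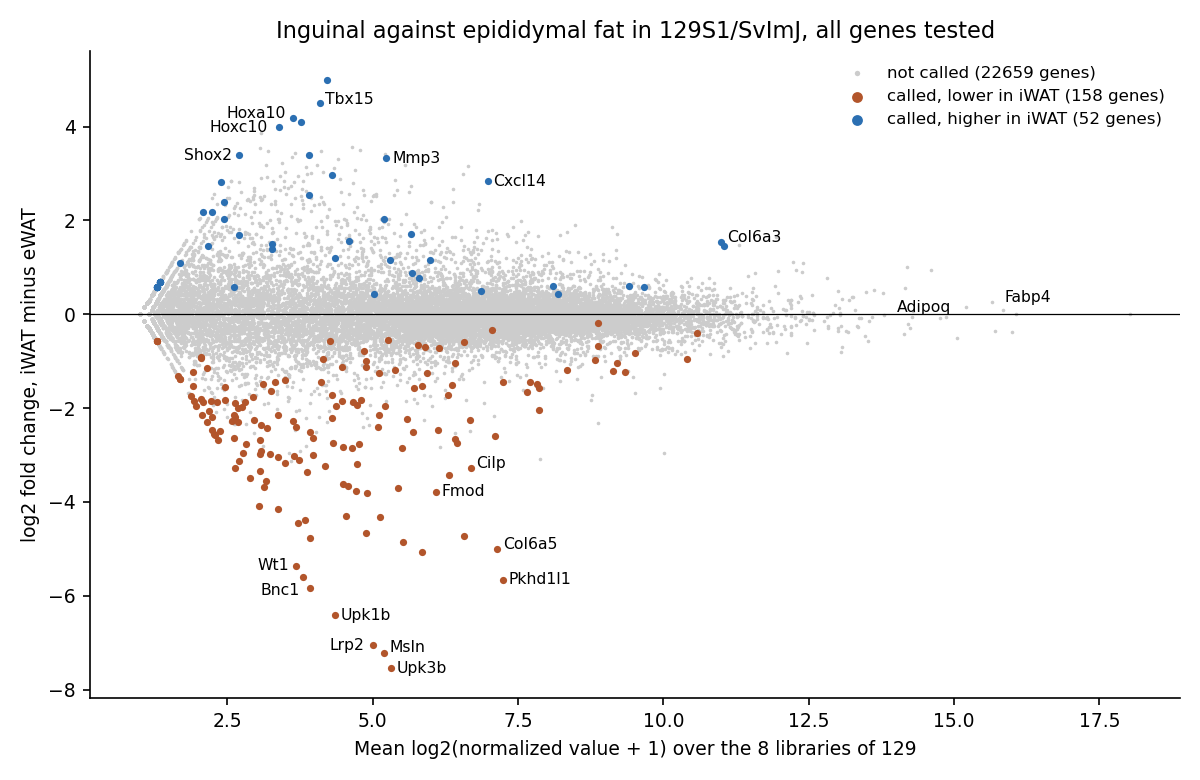
Each point is a gene, with the mean log2(normalized value + 1) over the 8 libraries on the horizontal axis and the log2 fold change of iWAT minus eWAT on the vertical axis. Of the called genes 158 lay below 0 and 52 above it, and the differences of the mesothelial genes Upk3b and Msln were beyond -7, while the adipocyte genes Adipoq and Fabp4 lay at the right near 0.

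The largest falls in iWAT were those of the mesothelial genes Upk3b and Msln. Of 18 mesothelial genes listed 17 were measured, and 10 of them were lower in iWAT and 0 higher, against 0.691% of all genes lower. Their median log2 fold change was -3.76, against 0 for all genes. Without inguinal replicates 1 and 4, 6 were called lower and the median was -3.24. The uroplakin gene Upk3b had values of 472, 485, 597 and 648 in eWAT and of 2, 1, 3 and 2 in iWAT (-7.55 ± 0.23, adjusted p = 3.62e-05 by limma). Msln, which encodes the cell surface protein mesothelin, had values of 414, 465, 440 and 483 in eWAT and of 2 in every iWAT library (-7.23 ± 0.05, adjusted p = 3.11e-09 by limma). Both genes were thus at or near the floor in every iWAT library and far above it in every eWAT library.

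The promoters of 4 genes called between the depots are shown, 3 of the mesothelial group and 1 of the body wall transcription factors, as examples of genes called lower and higher in iWAT. Each is the 250 bases before the gene's start on the gene's strand, from RefSeq (build GRCm38.p6), in lower case, with capitals for matches to the WT1 motif. Upk3b lies at chr5:136038246-136038495 on the plus strand, Lrrn4 at chr2:132880863-132881112 on the minus strand, Krt7 at chr15:101412153-101412402 on the plus strand and Shox2 at chr3:66981772-66982021 on the minus strand.
Upk3b: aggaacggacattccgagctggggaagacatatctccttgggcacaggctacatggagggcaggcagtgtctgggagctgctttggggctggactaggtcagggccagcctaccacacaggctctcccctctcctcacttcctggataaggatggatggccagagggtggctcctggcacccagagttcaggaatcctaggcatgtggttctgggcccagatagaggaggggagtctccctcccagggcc
Lrrn4: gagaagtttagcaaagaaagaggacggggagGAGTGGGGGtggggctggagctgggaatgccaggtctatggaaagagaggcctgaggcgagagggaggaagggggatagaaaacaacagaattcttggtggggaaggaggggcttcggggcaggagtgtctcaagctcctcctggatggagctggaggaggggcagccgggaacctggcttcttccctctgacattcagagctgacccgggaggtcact
Krt7: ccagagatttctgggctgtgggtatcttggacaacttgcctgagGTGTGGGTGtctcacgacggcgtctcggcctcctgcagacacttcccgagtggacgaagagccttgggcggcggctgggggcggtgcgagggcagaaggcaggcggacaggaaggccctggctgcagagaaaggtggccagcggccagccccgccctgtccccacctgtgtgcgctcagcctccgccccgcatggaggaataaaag
Shox2: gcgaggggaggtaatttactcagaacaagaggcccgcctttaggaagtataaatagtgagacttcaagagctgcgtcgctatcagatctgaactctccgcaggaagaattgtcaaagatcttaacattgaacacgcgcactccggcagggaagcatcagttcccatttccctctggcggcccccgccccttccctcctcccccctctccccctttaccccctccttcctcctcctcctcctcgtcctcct
Both strands of these windows were searched for 6 motifs of transcription factor families that hold called genes. They were GNGTGGGNG for WT1, AGATAA for GATA factors, AGGTGTGA for T-box factors, TTTATNG for posterior HOX factors, CAGCTG for TCF21 and TGACAG for MEIS factors. Of the 210 called genes 141 had a promoter in the table, 105 lower and 36 higher in iWAT, of 15409 genes in all. The WT1 motif was found in 22.9% of the 105 promoters of genes lower in iWAT, in 16.7% of the 36 higher and in 13.8% of all 15409, and among those shown in Lrrn4 (GAGTGGGGG) and Krt7 (GTGTGGGTG). The MEIS motif was found in 15.2%, 11.1% and 15.2% of the same promoters, and the TCF21 motif in 13.3%, 13.9% and 12.2%. The GATA motif was found in 10.5%, 13.9% and 8.95% of them and the posterior HOX motif in 6.67%, 11.1% and 9.16%. The T-box motif was in 1.03% of all promoters and in 0 of the 141 of called genes. None of the other 5 motifs was found in the promoters shown.

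Further mesothelial genes called lower in iWAT were high in every eWAT library. Upk1b, a tetraspanin of the uroplakin group, had 188 ± 9.84 in eWAT and 1.25 ± 0.5 in iWAT (-6.42 ± 0.15, adjusted p = 6.79e-06 by limma). Lrrn4, a leucine-rich repeat membrane protein gene, had values of 318, 308, 377 and 335 in eWAT and of 11, 9, 8 and 8 in iWAT (-5.07 ± 0.11, adjusted p = 6.38e-06 by limma). Gpm6a, a membrane glycoprotein gene, fell by 4.72 on the log2 scale, the membrane protein gene Nkain4 by 4.78 and Rspo1, whose secreted product enhances Wnt signalling, by 4.66 (largest adjusted p = 0.00264 by limma). These calls held with each library left out in turn. That of Nkain4 was lost without inguinal replicates 1 and 4 (adjusted p = 0.0501 by limma).

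The keratin genes of simple epithelia were also lower in iWAT. Krt7 had values of 41, 59, 88 and 80 in eWAT and of 3, 3, 1 and 2 in iWAT (-4.38 ± 0.33, adjusted p = 0.00303 by limma). The calls of Krt7 and Krt8 were lost without inguinal replicates 1 and 4 (adjusted p = 0.0578 and 0.107). Krt8 differed by -3.34 ± 0.31 (adjusted p = 0.00703) and Krt19 by -3.76 ± 0.45 (adjusted p = 0.0221, limma). The call of Krt19 was lost in 6 of 8 fits that left out a library (highest adjusted p = 0.0912). It was also lost without inguinal replicates 1 and 4 (adjusted p = 0.0781 by limma). Krt18, the partner of Krt8, had 33 ± 9.06 in eWAT and 4.25 ± 4.03 in iWAT and was not called (adjusted p = 0.105 by limma). Neither was Aldh1a2, an enzyme gene of retinoic acid synthesis, with values of 84, 80, 53 and 62 in eWAT and of 5, 24, 19 and 10 in iWAT (adjusted p = 0.127 by limma), although the depots did not overlap. A separate list held 18 genes of skin and glandular epithelium, of which 2 were lower and 1 higher in iWAT, with a median of 0.00. Over all genes 0.691% were lower and 0.227% higher. Of this list Dsp, which encodes the desmosome protein desmoplakin, had 80.5 ± 22.6 in eWAT and 5.75 ± 2.36 in iWAT (-3.61 ± 0.31, adjusted p = 0.00551 by limma). The basal keratin Krt14 of the same list fell by 2.64 on the log2 scale (adjusted p = 0.0105 by limma). The call of Krt14 was lost without epididymal replicate 2 (adjusted p = 0.0515) and without inguinal replicates 1 and 4 (adjusted p = 0.118 by limma). Cdh1, the gene of E-cadherin and also of that list, was low in both depots and higher in iWAT, with 1 to 2 in eWAT and 6 to 8 in iWAT (1.46 ± 0.17, adjusted p = 0.0182 by limma). That call was held in 1 of 8 fits that left out a library, and was lost without inguinal replicates 1 and 4.

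Among the 12 largest falls with a mean of at least 50 were also 5 genes outside the mesothelial and transcription factor lists. Lrp2, the endocytic receptor megalin, had values of 471, 305, 369 and 352 in eWAT and of 2, 1, 1 and 4 in iWAT (-7.06 ± 0.33, adjusted p = 0.000337 by limma). Pkhd1l1, which encodes a large membrane protein, had values of 1074, 853, 1380 and 1073 in eWAT and of 33, 17, 13 and 23 in iWAT (-5.66 ± 0.30, adjusted p = 0.000611 by limma). The receptor phosphatase gene Ptprq lay at the floor in all 4 iWAT libraries and at 78 to 149 in eWAT. The collagen VI chain gene Col6a5 had 823 ± 228 in eWAT and 25.2 ± 9.57 in iWAT (-5.01 ± 0.33), and the basement membrane gene Fras1 had 212 to 287 and 5 to 11 (-4.85 ± 0.26, larger adjusted p = 0.00175 by limma). All 5 were called with each library left out.

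**Figure D3:**
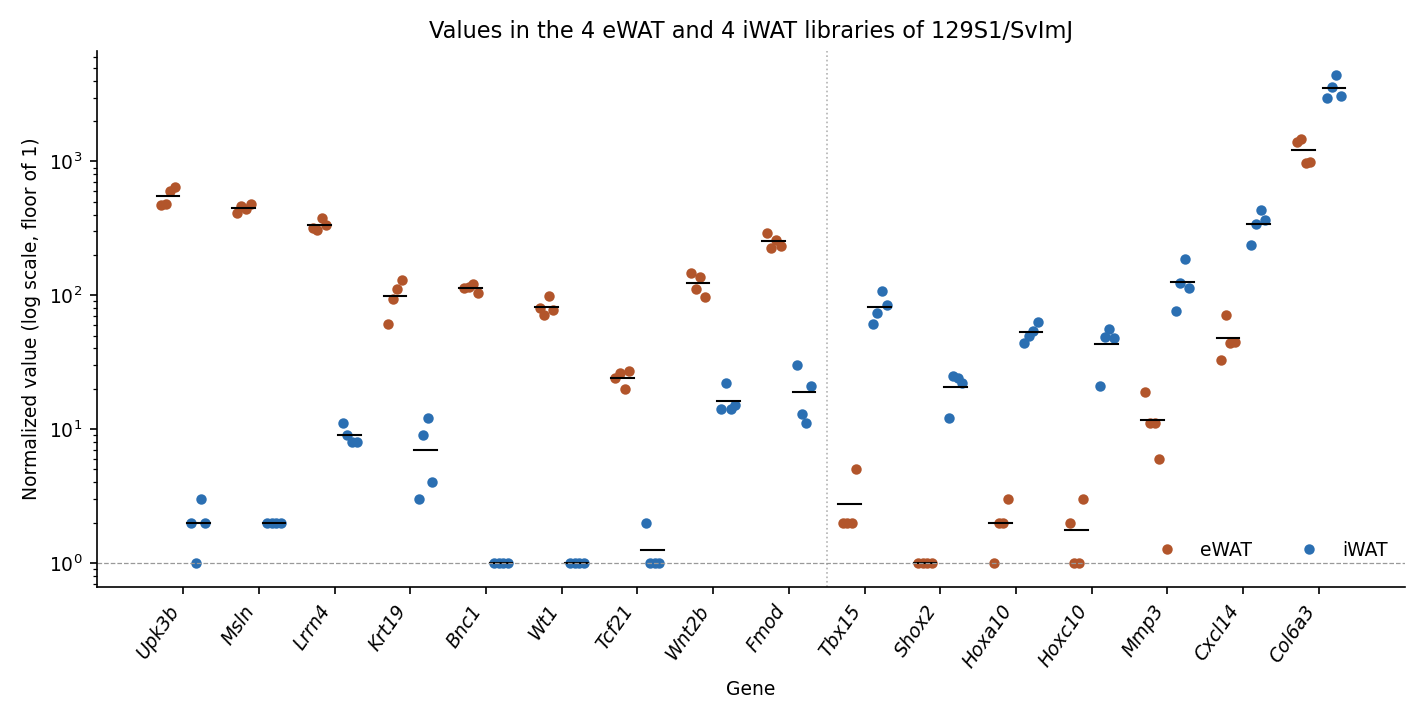
Normalized values of 16 genes on a log axis, with 4 eWAT (brown) and 4 iWAT (blue) libraries of 129S1/SvImJ as points and the mean as a bar; the dashed line is the floor of 1. The 9 genes left of the dotted line were lower and the 7 to its right higher in iWAT, and the libraries of the depots do not overlap for any of them.

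Of 26 transcription factors of the coelomic lining and the gonadal ridge, 6 were lower and 1 higher in iWAT, with a median of -0.73, against 0.691% of all genes lower and 0.227% higher. When inguinal replicates 1 and 4 were left out, 5 were lower and 0 higher by limma. Bnc1, a zinc finger gene, had values of 114, 116, 122 and 104 in eWAT and of 1 in every iWAT library (-5.84 ± 0.05, adjusted p = 8.66e-09 by limma). Wt1 had values of 80, 71, 99 and 77 in eWAT and likewise 1 in every iWAT library (-5.36 ± 0.10, adjusted p = 1.96e-06 by limma). Tcf21, a basic helix-loop-helix factor of visceral mesoderm, had 24.2 ± 3.1 in eWAT and 1.25 ± 0.5 in iWAT (-3.50 ± 0.17, adjusted p = 0.000382 by limma). Both Bnc1 and Wt1 were thus listed at the floor throughout iWAT.

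Gata5 differed by -3.12 ± 0.15 (adjusted p = 0.000411) and the LIM homeobox gene Isl1 by -2.19 ± 0.20 (adjusted p = 0.00726, limma), and Isl1 was low in both depots, with 7 to 11 in eWAT and 1 to 2 in iWAT. The call of Isl1 was lost without inguinal replicates 1 and 4 (adjusted p = 0.121). Meis1, whose product binds DNA together with HOX proteins, had values of 147, 119, 140 and 145 in eWAT and of 37, 60, 51 and 46 in iWAT (-1.50 ± 0.16, adjusted p = 0.0118 by limma). Its call was lost without epididymal replicate 1, 3 or 4 or inguinal replicate 4 (highest adjusted p = 0.0594). Gata6 had 100 ± 19.2 and 41.5 ± 8.19 (-1.25 ± 0.19, adjusted p = 0.0546) and the nuclear receptor gene Nr2f1 had 21.5 ± 7.14 and 5.5 ± 1.91 (-1.77 ± 0.32, adjusted p = 0.096, limma), and neither was called. The exception in direction was Osr2, an odd-skipped gene, with 1 to 3 in eWAT and 9 to 14 in iWAT (2.40 ± 0.28, adjusted p = 0.0209 by limma), a call that held in 1 of 8 fits with a library left out.

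Of 26 transcription factors of limb and body wall, 3 were higher in iWAT and 0 lower, with a median of 0.41, against 0.227% of all genes higher. Tbx15, a T-box gene of the trunk and limb mesenchyme, had values of 2, 2, 2 and 5 in eWAT and of 61, 74, 107 and 84 in iWAT (4.50 ± 0.29, adjusted p = 0.00175 by limma). The homeobox gene Shox2 lay at the floor in every eWAT library and had values of 12, 25, 24 and 22 in iWAT (3.39 ± 0.23, adjusted p = 0.00196 by limma). Lhx8, a LIM homeobox gene, also lay at the floor in eWAT and had 14 ± 6.16 in iWAT (2.81 ± 0.30, adjusted p = 0.0143 by limma). Tbx15 and Shox2 were called with each library left out, and Lhx8 in 2 of those 8 fits. Not called were Prrx1, a mesenchymal homeobox gene, with 232 ± 44.6 in eWAT and 404 ± 140 in iWAT (0.75 ± 0.28), and Alx4, with 13 ± 3.16 and 4.25 ± 1.26 (-1.42 ± 0.23, smaller adjusted p = 0.0592 by limma). Without inguinal replicates 1 and 4, 5 of the 26 were higher.

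The HOX genes are given by cluster and by position. Of 39 measured, 19 had a mean of at least 10 in either depot, and 2 were higher and 2 lower in iWAT, against 0.227% and 0.691% of all genes. The counts were 3 higher and 0 lower without inguinal replicates 1 and 4. Hoxa10 had values of 1, 2, 2 and 3 in eWAT and of 44, 50, 54 and 63 in iWAT (4.19 ± 0.23, adjusted p = 0.000611 by limma). Hoxc10 had values of 2, 1, 1 and 3 in eWAT and of 21, 49, 56 and 48 in iWAT (3.99 ± 0.39, adjusted p = 0.0091 by limma). Hoxa10 and Hoxc10 were thus close to the floor in eWAT and well above it in each iWAT library, while their paralogue Hoxd10 had 1 to 4 in eWAT and 1 to 6 in iWAT (0.12 ± 0.45) and was not called. Hoxa5 had values of 34, 30, 39 and 37 in eWAT and of 8, 10, 13 and 9 in iWAT (-1.72 ± 0.15, adjusted p = 0.00621 by limma). Hoxa2 had 13.8 ± 3.77 and 4.25 ± 0.957 (-1.48 ± 0.22, adjusted p = 0.0462 by limma), a call lost in all 8 fits that left out a library and without inguinal replicates 1 and 4. In the latter fit Hoxa5 was also not called (-1.53, adjusted p = 0.0575).

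The uncalled HOX genes gave smaller or more variable differences. Hoxa9 had 2.25 ± 1.26 in eWAT and 16.5 ± 6.61 in iWAT (2.43 ± 0.38, adjusted p = 0.0575), and Hoxc4 had 59.2 ± 16.9 and 13.5 ± 6.61 (-2.11 ± 0.34, adjusted p = 0.0633, limma). Hoxa4 differed by -0.95 ± 0.23, Hoxc8 by -1.0 ± 0.29 and Hoxc9 by 0.39 ± 0.32, with a smallest adjusted p of 0.207. Hoxc8 had values of 731, 348, 415 and 368 in eWAT and of 160, 228, 288 and 226 in iWAT. The 10 HoxB genes differed by -0.46 to 0.08 and the 9 HoxD genes by -0.38 to 0.20, and none of these 19 was called. No test compared the positions or the clusters with each other.

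**Figure D4:**
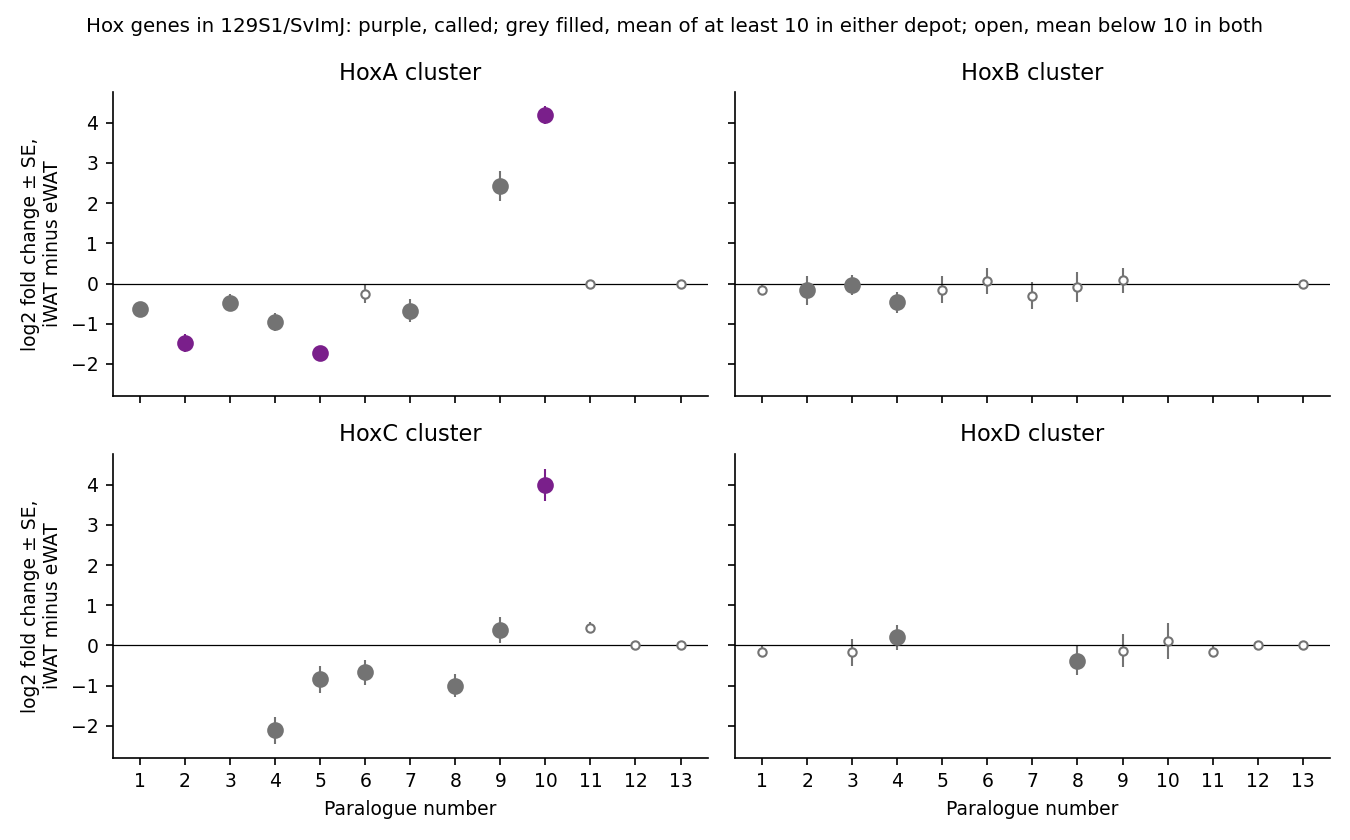
Log2 fold change ± SE of iWAT minus eWAT for the genes of the 4 HOX clusters, by paralogue number; called genes are purple, other genes with a mean of at least 10 in either depot filled grey, and lower ones open. Hoxa10 and Hoxc10 lay near 4, Hoxa2 and Hoxa5 below -1, and the HoxB and HoxD genes within 0.5 of 0.

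Of 50 ligands, antagonists and retinoid genes, 5 were lower and 1 higher in iWAT, with a median of -0.37, against 0.691% of all genes lower and 0.227% higher. Only 1 was lower and 1 higher without inguinal replicates 1 and 4, with a median of -0.15. Among 17 Wnt pathway genes, the ligand gene Wnt2b had values of 147, 112, 138 and 97 in eWAT and of 14, 22, 14 and 15 in iWAT (-2.86 ± 0.20, adjusted p = 0.00213 by limma). It was not called without inguinal replicates 1 and 4 (-2.73, adjusted p = 0.0544). The Dickkopf genes, which encode secreted modulators of Wnt signalling, went opposite ways. Dkk3 had 40 ± 6.83 in eWAT and 9.75 ± 2.87 in iWAT (-1.95 ± 0.21, adjusted p = 0.0128), while Dkk2 had 4 to 5 in eWAT and 13 to 17 in iWAT (1.5 ± 0.10, adjusted p = 0.00187, limma). The call of Dkk3 was lost without epididymal replicate 1 or 4 or inguinal replicate 3 or 4 (highest adjusted p = 0.0613).

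Of 17 genes of the BMP and activin pathways 1 was lower in iWAT and 0 higher, against 0.691% of all genes lower. At an unadjusted p under 0.05 by limma 9 were lower and 0 higher, against 1429 and 926 of all 22869 genes. The ligand gene Bmp4 had 55.2 ± 12 and 23 ± 8.6 (-1.28 ± 0.31, adjusted p = 0.207 by limma). Of 16 FGF and retinoid genes 2 were lower in iWAT and 0 higher. The growth factor gene Fgf9 differed by -3.02 ± 0.39 (adjusted p = 0.0289 by limma). It was called in 1 of 8 fits that left out a library, and not without inguinal replicates 1 and 4 (adjusted p = 0.137 by limma). Fgf1 had values of 1405, 1545, 1191 and 1139 in eWAT and of 218, 753, 715 and 233 in iWAT (-1.68 ± 0.49, adjusted p = 0.312 by limma). Its low inguinal values were those of replicates 1 and 4, and without them the difference was -0.84.

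The extracellular matrix list of 53 genes had 2 members higher and 2 lower in iWAT, with a median of -0.20, against 0.227% of all genes higher and 0.691% lower. Without inguinal replicates 1 and 4, 0 were higher and 1 lower by limma, and the median was 0.08. Fmod, the small proteoglycan fibromodulin, had values of 290, 224, 261 and 235 in eWAT and of 30, 13, 11 and 21 in iWAT (-3.78 ± 0.31, adjusted p = 0.00452 by limma). Cilp, a cartilage matrix protein gene, had 337 ± 104 and 32.8 ± 7.68 (-3.28 ± 0.30, adjusted p = 0.00631 by limma). Both calls held with each library left out. That of Cilp was lost without inguinal replicates 1 and 4 (adjusted p = 0.073).

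Higher in iWAT was Col6a3, a chain of collagen VI, with values of 1407, 1475, 979 and 999 in eWAT and of 3006, 3602, 4419 and 3075 in iWAT (1.54 ± 0.20, adjusted p = 0.0282 by limma). The stromelysin gene Mmp3 had values of 19, 11, 11 and 6 in eWAT and of 76, 123, 187 and 113 in iWAT (3.33 ± 0.40, adjusted p = 0.0209 by limma). The fibrillar collagen genes Col1a1 (1.47 ± 0.27), Col1a2 (1.11 ± 0.20) and Col3a1 (1.00 ± 0.20) had libraries that did not overlap between depots, yet were not called (smallest adjusted p = 0.0948 by limma). Col3a1 had values of 11643 to 17430 in eWAT and of 21259 to 34576 in iWAT. Fbln1, the gene of fibulin 1, had 200 ± 26.7 and 104 ± 17.2 (-0.94 ± 0.15, adjusted p = 0.0647 by limma). Outside the list, Dpt, the matrix protein dermatopontin, had 1308 ± 342 in eWAT and 3488 ± 229 in iWAT (1.45 ± 0.18, adjusted p = 0.0238), and the metalloprotease gene Mmp27 6.5 ± 2.65 and 58.2 ± 26.7 (2.96 ± 0.43, adjusted p = 0.0438, limma). The call of Col6a3 and that of Mmp27 were lost in all 8 fits that left out a library, that of Dpt in 7 and that of Mmp3 in 6.

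Of the 11 Schwann cell genes measured 1 was higher in iWAT and 0 lower, against 0.227% of all genes higher and 0.691% lower. The list median was 0.92, and 6 were higher at an unadjusted p under 0.05, against 926 of all 22869 genes. Prx, the gene of the myelin protein periaxin, had 9.5 ± 3.7 in eWAT and 62.5 ± 27.2 in iWAT and was not called (2.56 ± 0.42, adjusted p = 0.0669 by limma). Mal, a myelin membrane gene, had 3 ± 1.83 and 23.2 ± 14.7 (2.46 ± 0.64). The mean log2 level of the 11 genes was 4.37 to 4.55 in eWAT and 5.25 to 6.21 in iWAT.

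Among the 12 largest rises with a mean of at least 50 were also genes outside the lists. The secreted phospholipase gene Pla2g5 had values of 4, 5, 1 and 1 in eWAT and of 44, 49, 94 and 47 in iWAT (4.10 ± 0.48, adjusted p = 0.0199 by limma). The chemokine gene Cxcl14 had values of 33, 71, 44 and 45 in eWAT and of 236, 338, 436 and 363 in iWAT (2.83 ± 0.28, adjusted p = 0.0105 by limma). Itm2a, a membrane protein gene, had values of 24, 28, 29 and 27 in eWAT and of 99, 100, 80 and 87 in iWAT (1.72 ± 0.09, adjusted p = 0.000619 by limma). Of these, Itm2a was called with each library left out. The calls were held in 1 of 8 such fits for Pla2g5 and in 5 for Cxcl14, which lost it without epididymal replicate 3 or 4 or inguinal replicate 4 (highest adjusted p = 0.0542). The glycine cleavage enzyme gene Gldc (2.02 ± 0.29) and the GTPase activator gene Arhgap19 (1.16 ± 0.14) rose less (larger adjusted p = 0.0426 by limma), and their calls were held in 1 and 2 of 8 such fits.

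Of 15 acute phase and complement genes 2 were lower in iWAT and 0 higher, against 0.691% of all genes lower. The protease gene C1s, which has a close copy in the mouse and may share reads with it, differed by -0.40 ± 0.05 (adjusted p = 0.0231 by limma). This call was lost in 7 of 8 fits that left out a library, and without inguinal replicates 1 and 4. C2 had 858 ± 136 and 492 ± 78.5 (-0.80 ± 0.15, adjusted p = 0.114 by limma). Agt, which encodes angiotensinogen, had values of 427, 648, 804 and 988 in eWAT and of 39, 167, 182 and 33 in iWAT, the lowest being replicates 1 and 4, and was not called (-3.09 ± 0.68, adjusted p = 0.168 by limma). Pdpn, a surface protein gene of lymphatic endothelium that is also expressed by mesothelium, had 90.2 ± 7.8 and 30.2 ± 7.27 (-1.57 ± 0.18, adjusted p = 0.0171 by limma). It was the only one of 24 endothelial genes called, in 3 of 8 fits with a library left out.

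Genes of the adipocyte itself were not called. Of 37 genes of adipocyte regulators, lipid droplets, fatty acid uptake and triglyceride synthesis 0 were called by limma, with a median of -0.01. At an unadjusted p under 0.05 there were 3. Over all genes 0.918% were called, so 0 of 37 is near that share, and 2355 of 22869 had such an unadjusted p. Pparg, the regulator of adipocyte differentiation, had values of 1508, 1485, 2203 and 1758 in eWAT and of 1175, 1598, 1402 and 1937 in iWAT (-0.19 ± 0.20, adjusted p = 0.727 by limma). Adipoq, which encodes adiponectin, differed by -0.20 ± 0.18 and the fatty acid binding protein gene Fabp4 by 0.01 ± 0.19. Lep, the leptin gene, had 11470.2 ± 2842.9 in eWAT and 11362.5 ± 4929.1 in iWAT (-0.09 ± 0.39, adjusted p = 1 by limma), with its 2 lowest inguinal values in replicates 1 and 4. These values overlapped between depots for all 4 genes.

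Energy metabolism lists were likewise without calls. Of 15 lipolysis, 17 insulin signalling, 27 fatty acid oxidation, 55 respiratory chain, 19 citrate cycle, 24 lipogenesis and 30 sterol genes 0 were called by limma, and 0, 2, 0, 1, 0, 3 and 6 of them had an unadjusted p under 0.05. Their medians lay between -0.08 and 0.11. Over all genes 0.918% were called, so 0 calls in lists of these sizes is near that share. An unadjusted p under 0.05 was found for 2355 of all 22869 genes. The 55 respiratory chain genes had a mean log2 level of 8.22 in epididymal replicate 1 and 8.32 in inguinal replicate 1, against 8.76 to 9.08 in the other 6 libraries. Nnt, the mitochondrial transhydrogenase gene, had values of 359, 328, 390 and 302 in eWAT and of 190, 202, 201 and 136 in iWAT (-0.93 ± 0.15, adjusted p = 0.0667 by limma).

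Of 36 thermogenic genes 1 was higher in iWAT, against 0.227% of all genes. It was the homeobox gene Shox2, which was listed with the beige markers and is also counted among the transcription factors of limb and body wall. The other 35 were not called. The median of the list was 0.25, and 0.01 without inguinal replicates 1 and 4. Ucp1 itself had 2.07 ± 1.32 (adjusted p = 0.615 by limma), and without both replicates 0.54. Cidea, a lipid droplet protein gene of brown and beige fat, had values of 127, 226, 171 and 154 in eWAT and of 337, 354, 398 and 1744 in iWAT (1.69 ± 0.58, adjusted p = 0.396 by limma). The brown fat regulator gene Prdm16 had values of 50, 25, 29 and 30 in eWAT and of 59, 82, 72 and 154 in iWAT (1.38 ± 0.35, adjusted p = 0.239 by limma). Cox8b (1.87 ± 0.52) and Otop1 (2.74 ± 0.64), both markers of brown fat, were also not called (smaller adjusted p = 0.197 by limma). For each of these 5 genes the highest inguinal value was that of replicate 4, and for all but Ucp1 the depots did not overlap. Over the 36 thermogenic genes, which do not include Cidea, the depots did not overlap for 6, in either direction. Over all genes tested that share was 6.3%.

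Immune transcripts varied among the inguinal libraries. Of 41 lymphocyte and lymph node genes 0 were called by limma, with 3 at an unadjusted p under 0.05. Their median was 2.52, and 0.15 without inguinal replicates 1 and 4. The T cell receptor component gene Cd3g had values of 4, 2, 4 and 2 in eWAT and of 288, 7, 8 and 146 in iWAT (3.43 ± 1.33, adjusted p = 0.452 by limma). Of 36 macrophage genes 0 were called by limma, with 6 at an unadjusted p under 0.05. Trem2, a receptor gene of lipid-associated macrophages, had values of 363, 556, 399 and 384 in eWAT and of 63, 390, 366 and 43 in iWAT. The 8 lipid-associated macrophage genes summed to 1921 to 2964 in eWAT and to 903, 2283, 2144 and 1012 in iWAT, so that the inguinal libraries with lymphocyte transcripts had the lowest sums. The 20 skeletal muscle genes summed to 8981 in inguinal replicate 1 and to 966 to 1476 in the other 7 libraries. Of them 0 were called by limma, with 1 at an unadjusted p under 0.05. Over all genes 0.918% were called and 2355 of 22869 had such an unadjusted p.

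The depot differences were set beside those of C57BL/6, whose libraries are other samples. The C57BL/6 inguinal libraries were coarser than the rest. They held 467 to 679 different values each, where the other 13 libraries held 1474 to 1758, and had 32.1% to 37.7% of their transcripts at the floor. In a fit of all 17 libraries 2991 genes (13.1%) were called between the depots of C57BL/6, and 393 between those of 129S1/SvImJ. Of the 158 genes lower in iWAT of 129S1/SvImJ, 155 were in the same direction in C57BL/6, and 116 of them (73.4%) were called there in that direction and 0 in the opposite one, against 7.81% of all genes called lower. Of the 52 higher genes 35 had the same direction, 24 (46.2%) were called in it, against 5.27% of all genes called higher, and 3 in the opposite direction. Upk3b, Wt1, Bnc1, Tbx15, Shox2, Hoxa10 and Hoxc10 were called in the same direction in both strains, and none of these 7 was called for a strain by depot interaction.

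**Figure D5:**
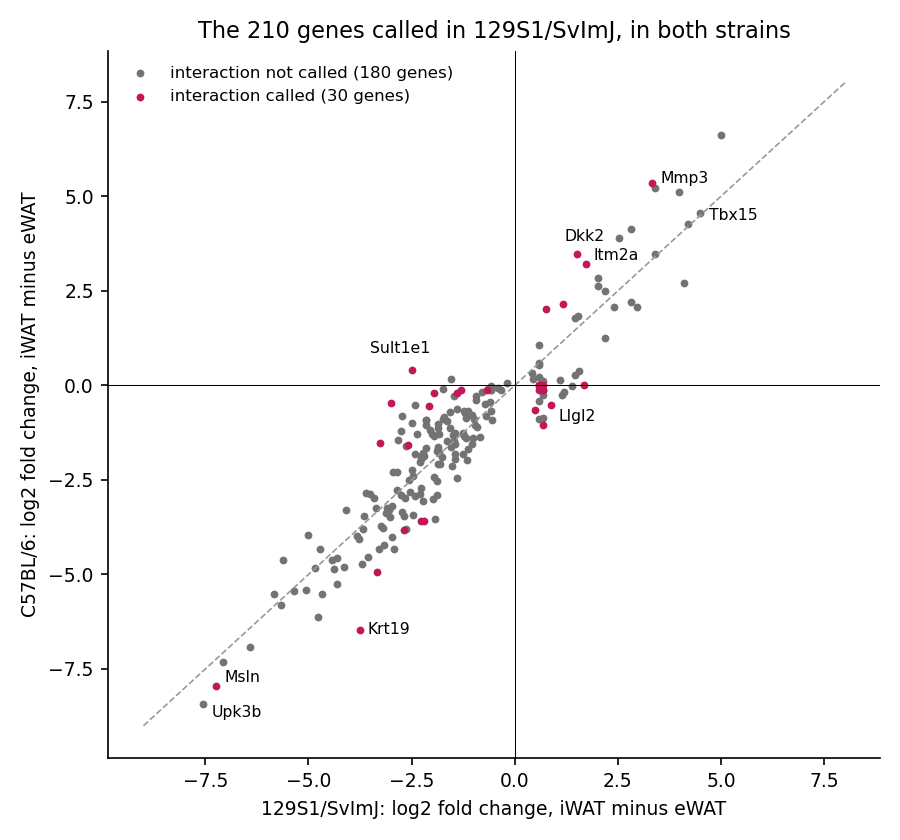
Log2 fold change of iWAT minus eWAT in 129S1/SvImJ (horizontal) and C57BL/6 (vertical) for the 210 genes called in 129S1/SvImJ, with the line of equality dashed. The 30 genes called for a strain by depot interaction are red, among them Sult1e1 and Llgl2, whose differences had opposite signs in the strains.

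The strain by depot interaction, which tests whether the depot difference itself differed, was called for 715 genes (3.13%), 30 of them among the 210. The count was 463 without epididymal replicate 3 of 129S1/SvImJ and 455, 472, 460 and 425 without epididymal replicate 1, 2, 3 and 5 of C57BL/6, and it was 1122 without inguinal replicate 4 of C57BL/6. In 15 of the 158 lower genes (9.49%) and 15 of the 52 higher genes (28.8%) it was called. The depot difference of Sult1e1, which encodes the oestrogen sulphotransferase, was among them, and the gene was chosen after its values were seen. It had values of 94, 91, 119 and 217 in eWAT and of 19, 20, 30 and 16 in iWAT of 129S1/SvImJ (-2.50 ± 0.33, adjusted p = 0.0327), against means of 107 and 140 in C57BL/6 (0.41, interaction adjusted p = 0.00587, limma). Its depot call in 129S1/SvImJ was held in 1 of 8 fits that left out a library (highest adjusted p = 0.12) and was lost without inguinal replicates 1 and 4 (adjusted p = 0.257). For other genes the fitted difference was larger in C57BL/6. Krt19 differed there by -6.48 (interaction adjusted p = 0.0285), Krt8 by -4.93 (0.0364), Krt18 by -5.22 (0.0426), Isl1 by -3.58 (0.00843) and Msln by -7.94 (0.0145, limma). All 4 inguinal libraries of C57BL/6 lay at the floor for Krt8, Krt18, Isl1 and Msln, and 3 of 4 for Krt19, so that these fitted differences depend on the floor and the pseudocount. For Msln the inguinal values were 2 in every library of 129S1/SvImJ and 1 in every library of C57BL/6. Of the genes higher in iWAT, Dkk2 differed by 3.48 in C57BL/6 (interaction adjusted p = 0.0271), Mmp3 by 5.35 (0.0257), Itm2a by 3.22 (0.0117) and Arhgap19 by 2.15 (0.0299, limma).

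The 3 genes called in opposite directions were Llgl2, Snx11 and the platelet glycoprotein gene Gp5, of which Llgl2 and Gp5 were chosen after their values were seen. Gp5 had values of at most 4 in every library. Llgl2, a cell polarity gene, had values of 30, 44, 38 and 37 in eWAT and of 68, 75, 68 and 62 in iWAT of 129S1/SvImJ (0.87 ± 0.12, adjusted p = 0.0384), against 59 to 73 and 36 to 50 in C57BL/6 (-0.53, interaction adjusted p = 0.00116, limma). Snx11, a sorting nexin gene, had values of 90 to 105 in eWAT and of 134 to 147 in iWAT of 129S1/SvImJ, against 136 to 175 and 86 to 118 in C57BL/6 (interaction adjusted p = 0.000751 by limma). The depot calls of Llgl2 and Snx11 in 129S1/SvImJ were held in 2 and 3 of 8 fits that left out a library and were lost without inguinal replicates 1 and 4 (adjusted p = 0.209 and 0.158). In both genes the inguinal values of the coarser C57BL/6 libraries were the lower ones of that strain, and the part of that coarseness in the interaction was not tested.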

How the data were processed

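RNA was measured by RNA-seq of whole fat, with libraries made with a TruSeq kit, per the labels' protocols. The deposited tables hold scores: normalized values per RefSeq transcript that the authors rounded to whole numbers, with a floor of 1 and nearly equal totals (6766340 to 6768383 in the 8 libraries). HOMER and the mm9 build are named, per the submitters' processing notes, while the normalization and the counting options were not stated there. The same tables hold the authors' log2 fold changes and p-values between strains as deposited, which were not used. Depth is unknown, so no counting error is given. One transcript row per gene symbol was kept, that with the highest total over 17 libraries (22869 genes from 28644 rows).

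From these values log2(value + 1) was fitted with limma 3.58.1 in R 4.3.3, with trend and robust moderation, no filter on low values and Benjamini-Hochberg adjustment over all genes. The depot comparison used the 8 libraries of 129S1/SvImJ, and the C57BL/6 contrast and the interaction all 17. The method was tested on simulated data. Members and gene lists were chosen with earlier results of these data known. Genes named were, by rule, the 12 largest called changes in each direction with a mean of at least 50, up to 6 members of each list subgroup with the smallest p, HOX and depot transcription factors with a mean of at least 10, and 8 fixed genes, with up to 10 for the interaction. Krt7, Krt8, Krt18, Krt19, Myh4, Llgl2, Gp5 and Sult1e1 were chosen after their values were seen. Some genes the rule names are not reported here. Alternatives changed the pseudocount, filter, scaling, weights, moderation, transcript choice and libraries. Promoter sequences came from RefSeq, build GRCm38.p6.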

Additional observations from a re-analysis of the deposited data

Results flagged for a closer look

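Dixon's critical value of 0.829 was applied to 286 groups of 4 libraries, 176 of single genes and 110 of list means. Chance gives about 1 in 20 for continuous values, a rate that need not hold for whole numbers tied near the floor. In 25 groups 1 library lay farther from the others than the critical value allows. Many of these values are at or near the floor: 2 for Upk1b in inguinal replicate 2, for Tcf21 in inguinal replicate 1, for Gata5 in inguinal replicate 4 and for Isl1 in inguinal replicate 2, and 1 for Cdh1 in epididymal replicate 3. Epididymal replicate 4 had the high values of Osr2 (3) and Tbx15 (5), and epididymal replicate 1 the low value of Dkk2 (4). Inguinal replicate 4 had the high value of Cdh1 (8) and of Cidea (1744), and the low value of Nnt (136). Inguinal replicate 1 had the low value of Hoxc10 (21), and inguinal replicate 2 the high values of Wnt2b (22), Snx11 (147) and Gp5 (3). Inguinal replicate 3 had the high values of Pla2g5 (94) and Col1a2 (9417), and epididymal replicate 3 the low value of Col1a1 (936).

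Among mean log2 levels of lists, epididymal replicate 1 was low for complex I (8.13) and for complexes IV and V (8.17) of the respiratory chain. Inguinal replicate 1 was high for general macrophage genes (7.86) and inguinal replicate 3 for smooth muscle and pericyte genes (7.31). Epididymal replicate 3 was low for lymph node stroma (1.78) and for epidermal and ductal genes (2.12), and epididymal replicate 4 was high for lymphatic endothelium (5.93).

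The depot difference of 12 named genes differed between strains by the interaction test. In log2 units of 129S1/SvImJ minus C57BL/6 it was 0.71 for Msln, 1.58 for Krt8, 2.72 for Krt19, 2.26 for Krt18 and 1.39 for Isl1. It was -1.98 for Dkk2, -2.03 for Mmp3, -1.49 for Itm2a and -0.99 for Arhgap19. It was 1.39 for Llgl2, 1.15 for Snx11 and -2.91 for Sult1e1. None of the 12 reversed under the alternatives, but many of these interaction calls were lost. With the replicate number as a block 11 were lost, and with array weights 6. Without the 2 inguinal libraries with lymphocyte transcripts 5 were lost, and with a pseudocount of 8 only 1. The part of the coarser C57BL/6 inguinal libraries in these calls was not tested.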

How the results depend on the processing

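The 210 depot calls became 349 with a filter on values above the floor in at least 4 libraries, 393 in the fit of 17 libraries and 338 with array weights, and ranged from 117 to 159 with a library left out. They were 206 to 285 under the other pseudocounts, scalings, moderation, transcript choice and mean filter. The 715 interaction calls ranged from 425 to 1122 with a library left out. With the replicate number as a block 30 depot and 25 interaction genes were called. Whether equal numbers mark the same animal is not known: same-numbered libraries of the depots had correlations of deviations of 0.093, 0.053, -0.127 and 0.016, and inguinal replicate 4 correlated best with epididymal replicate 3 (0.274).

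No called gene named here reversed. Leaving out libraries could not reverse one, because the depots did not overlap for any called gene. Of 53 called depot differences checked, 40 were no longer called with the replicate number as a block. The uncalled Lep difference became 0.27 with array weights, 0.02 and 0.20 without epididymal replicate 2 and inguinal replicate 4, and 0.47 without inguinal replicates 1 and 4, an alternative chosen after seeing the data. Over the fits that left out a library its lowest and highest values were -0.29 and 0.20, and those of Fabp4 were -0.09 and 0.12 (-0.09, -0.08 and -0.08 in the reversed ones) and of Myh4 -0.19 and 1.79 (-0.19 without inguinal replicate 1). The cause was not tested. Unknown depth limits low genes most: 43 of the 210 had a mean under 10 in both depots.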

Other observations

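Other lists without calls by limma are given as values. Of all 22869 genes 926 were higher and 1429 lower in iWAT at an unadjusted p under 0.05. The median log2 fold change of 18 blood vessel endothelial genes was 0.38, with 4 higher in iWAT at an unadjusted p under 0.05. It was 0.19 for 12 smooth muscle and pericyte genes (1 higher) and 0.00 for 21 progenitor and fibroblast genes (2 higher and 2 lower). The 14 hormone genes of fat had a median of -0.18 (1 higher and 2 lower) and 7 haemoglobin and red cell genes one of -0.65 (1 lower).

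Of 22 antiviral interferon genes 3 were higher at that unadjusted p, with a median of 0.19. The median was -0.13 for 19 clock genes (1 higher), -0.04 for 22 immediate early transcription factor genes (2 higher and 1 lower) and 0.55 for 24 cell cycle genes (1 higher). Without inguinal replicates 1 and 4 the cell cycle median was -0.01.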
